A study of Mus musculus with 24 samples.

Results

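The 51 genes described here encode the degradative machinery of the lysosome and the proton pump that acidifies it, together with the transcription factors that control many of these genes. They were listed by name, with earlier results of these data known, as 26 soluble hydrolases and their cofactors, 8 lysosomal membrane proteins, 3 members of the TFEB family and 14 subunits or accessory proteins of the vacuolar H+-ATPase (V-ATPase). All 51 were found among the 45706 genes of the count table, and all 51 passed the filter on low counts in every comparison. They were measured by RNA-seq in tissue-resident macrophages (TRMs) of 4 tissues of female C57BL/6J mice aged 8 to 12 weeks, with no transgene or drug. Microglia (MG) of the brain, Kupffer cells (KCs) of the liver, peritoneal macrophages (PMs) and alveolar macrophages (AMs) of the lung were either sorted by flow cytometry and measured ex vivo, or grown in vitro from whole organ suspensions and measured as TRM-like cells (MG-LCs, KC-LCs, PM-LCs and AM-LCs). Each of these 8 groups had 3 libraries. KC-LCs and PM-LCs were grown with M-CSF, MG-LCs with M-CSF and IL-34, and AM-LCs with GM-CSF, and AM-LCs alone were kept at atmospheric oxygen and without glucose, so that tissue of origin and culture conditions cannot be told apart among the cultures, except between KC-LCs and PM-LCs, which shared medium and oxygen. Cultures from brain, lung and peritoneum pooled several mice in a flask.

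Lysosomal hydrolases are made in the endoplasmic reticulum, tagged and carried to an acidic compartment in which they take apart glycans, sulfated glycosaminoglycans, lipids and proteins. The V-ATPase has a membrane sector, V0, through which protons pass, and a peripheral sector, V1, which hydrolyses ATP. TFEB, TFE3 and MITF are related factors that bind a short palindromic element found in the promoters of many lysosomal genes, and in macrophages the lysosome handles phagocytosed cells, debris, surfactant and lipoproteins.

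The core of that element, CACGTG, and 2 longer forms of it, TCACGTGA and GTCACGTG, were searched for on both strands in promoter windows of 300 bases, from 250 before to 50 after each annotated start, taken from RefSeq on mouse build GRCm38.p6. The 3 motifs overlap, since each longer form holds the core. A window was given for 46 of the 51 genes, and 14 of the 46 (30.4%) held CACGTG, against 8.09% of the 27025 genes with a window. TCACGTGA was in 6 of 46 (13%, against 1.12% of all genes), and GTCACGTG in 11 of 46 (23.9%, against 2.55%). These are matches of letters and not measured binding. The windows of 5 of the 14 genes with CACGTG are shown because they carry the element in different number and spacing. These genes encode an α-galactosidase, 2 V-ATPase subunits, a membrane glycoprotein and a calcium channel. Capitals mark the matches, each sequence runs 5′ to 3′ along its gene, and the window lies at chrX:134600956-134601255, minus strand for Gla, chr16:44139210-44139509, minus strand for Atp6v1a, chr17:26676146-26676445, plus strand for Atp6v0e, chr8:13158911-13159210, plus strand for Lamp1 and chr8:3500269-3500568, plus strand for Mcoln1.
Gla: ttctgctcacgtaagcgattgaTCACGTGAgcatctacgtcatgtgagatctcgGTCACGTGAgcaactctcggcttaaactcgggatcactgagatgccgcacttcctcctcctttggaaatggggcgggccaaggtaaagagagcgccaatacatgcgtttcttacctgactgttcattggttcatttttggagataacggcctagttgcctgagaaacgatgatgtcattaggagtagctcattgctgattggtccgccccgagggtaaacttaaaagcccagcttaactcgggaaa
Atp6v1a: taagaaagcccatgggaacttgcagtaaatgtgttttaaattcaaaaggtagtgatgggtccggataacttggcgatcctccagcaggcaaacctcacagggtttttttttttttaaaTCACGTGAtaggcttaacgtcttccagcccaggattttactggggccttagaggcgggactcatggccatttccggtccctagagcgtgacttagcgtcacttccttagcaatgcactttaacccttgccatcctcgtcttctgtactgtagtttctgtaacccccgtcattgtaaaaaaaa
Atp6v0e: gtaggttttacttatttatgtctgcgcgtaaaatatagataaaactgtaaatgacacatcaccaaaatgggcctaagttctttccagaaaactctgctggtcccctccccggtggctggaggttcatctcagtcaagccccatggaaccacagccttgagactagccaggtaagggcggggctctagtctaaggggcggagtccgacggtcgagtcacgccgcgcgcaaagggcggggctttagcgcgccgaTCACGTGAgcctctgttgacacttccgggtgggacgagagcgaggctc
Lamp1: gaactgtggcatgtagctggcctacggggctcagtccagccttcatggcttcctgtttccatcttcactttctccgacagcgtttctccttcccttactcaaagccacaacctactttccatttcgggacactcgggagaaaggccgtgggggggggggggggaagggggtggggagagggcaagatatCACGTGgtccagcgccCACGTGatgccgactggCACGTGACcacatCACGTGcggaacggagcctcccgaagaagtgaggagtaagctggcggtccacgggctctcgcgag
Mcoln1: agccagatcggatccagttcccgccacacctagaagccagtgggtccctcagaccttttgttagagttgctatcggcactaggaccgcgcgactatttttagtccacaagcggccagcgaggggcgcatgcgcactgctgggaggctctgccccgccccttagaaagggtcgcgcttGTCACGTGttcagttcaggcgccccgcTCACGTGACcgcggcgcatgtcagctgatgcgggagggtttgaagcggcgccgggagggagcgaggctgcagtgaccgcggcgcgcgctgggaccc
Gla held 2 matches and Mcoln1 2, Lamp1 held 4 close together before its start, and Atp6v1a and Atp6v0e held 1 each. None of the 3 TFEB family genes held CACGTG in any of its windows.

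Libraries held between 29569486 and 47105111 reads on genes. Levels are given as CPM, read counts divided by the library size and scaled by TMM factors (a correction for composition), and 3 reads correspond to between 0.0661 and 0.115 CPM. MG-LC replicate 1 stood apart. It had a summed level of 30979 CPM over 8 fibroblast and mesothelium markers, against 7.39 and 1012 CPM in the other MG-LC libraries, and a summed level of 1838 CPM over 6 macrophage markers, against 5120 and 5437 CPM. PM-LC replicate 2 (2209 CPM) and AM-LC replicate 3 (1668 CPM) also had more of these stromal transcripts than the other libraries of their groups. Sorted KC replicate 1 differed from its group too, with macrophage markers at 5673 CPM against 11154 and 14355 CPM. Without it 22 of the 51 genes were called higher in vitro in KCs, against 20 with it (14.4% of all genes). The share of all genes without it was not counted. In bulk RNA, fewer cells of a type and less RNA per cell cannot be told apart. Markers of each of the 4 resident populations were lower in the cultures than in the sorted cells of the same tissue. The 4 microglial markers summed to 12317 to 12774 CPM in sorted MG and 14.3 to 64.4 CPM in MG-LCs. The 4 Kupffer cell markers summed to 13895 to 24806 CPM in sorted KCs and 17.0 to 94.1 CPM in KC-LCs. The 4 peritoneal macrophage markers summed to 8773 to 9117 CPM in sorted PMs and 53.1 to 95.2 CPM in PM-LCs, and the 4 alveolar macrophage markers to 20726 to 23772 CPM in sorted AMs and 2457 to 9451 CPM in AM-LCs. The Kupffer cell markers, however, were higher in MG-LCs (215 to 2234 CPM) than in sorted MG (0.839 to 1.504 CPM). They were also higher in MG-LCs and PM-LCs (142 to 826 CPM) than in KC-LCs, and lowest in AM-LCs (2.86 to 16.7 CPM). The microglial, peritoneal and alveolar macrophage markers were each highest in the cultures of their own tissue. Sorted KCs also held hepatocyte markers at 115 to 244 CPM and endothelial markers at 413 to 837 CPM.

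More of the lysosomal genes rose than fell in vitro in each tissue, and in MG the count that rose was close to that of other abundant genes. Their median log2 fold change (in vitro minus ex vivo) was 0.77 in MG, 0.72 in KCs, 0.75 in AMs and 0.96 in PMs, beside 0.03 in MG, -0.01 in KCs, 0.04 in AMs and 0.01 in PMs over all genes tested. In all 4 tissues 32 of the 51 had a log2 fold change above 0, against 23.3% of the genes tested in every tissue, with no test. Of these 32, 23 kept that sign in every tissue under all 14 alternatives, and 9 (Asah1, Atp6v0b, Atp6v0d1, Cd68, Galns, Mcoln1, Neu1, Sgsh and Tpp1) turned in at least 1 tissue and alternative. In PMs 34 of the 51 rose in vitro and 4 fell, by the quasi-likelihood test of edgeR, with p adjusted over all genes by Benjamini-Hochberg, at a threshold of 0.05, when 16.8% of all genes were higher in vitro and 12.1% higher ex vivo. In AMs 29 rose and 8 fell (25.9% and 22.9% of all genes), in KCs 20 rose and 3 fell (14.4% and 19.4%), and in MG 16 rose and 2 fell (25.2% and 21.2%). Among genes with an average above 5 on the log2 CPM scale, the share higher in vitro was 29.6% in MG, near that of the 51 genes, 22.7% in KCs, 31.1% in AMs and, in PMs, 1174 of 4893 genes. Over the 4 tissues there were 116 calls, of which 69 held under every alternative and 8 held in under 7 of 14, namely Neu1 in MG, Cd68 and Atp6v1f in KCs, and Galns, Asah1, Scarb2, Atp6v0d1 and Atp6ap1 in PMs. Scaling to total counts lowered the median of all genes to -0.20 in MG, -0.21 in KCs, -0.33 in AMs and -0.10 in PMs, and the calls then were 15 higher and 5 lower in MG (20.6% and 27.5% of all genes) and 15 higher and 5 lower in KCs (10.1% and 22.4%). Summed over the 51 genes, the level went from 20781.6 ± 449 to 31765 ± 12393 CPM (SD, n = 3) in MG, from 23897 ± 3332 to 39027 ± 4741 CPM in KCs, from 20265 ± 1256 to 47531 ± 4673 CPM in PMs and from 24105 ± 632 to 43275 ± 4313 CPM in AMs. The 3 cultured libraries lay above the 3 sorted libraries in KCs, PMs and AMs. In MG the sum was 17455, 38933 and 38907 CPM in vitro, and replicate 1, the library rich in stromal markers, lay below all sorted MG libraries.

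**Figure D1:**
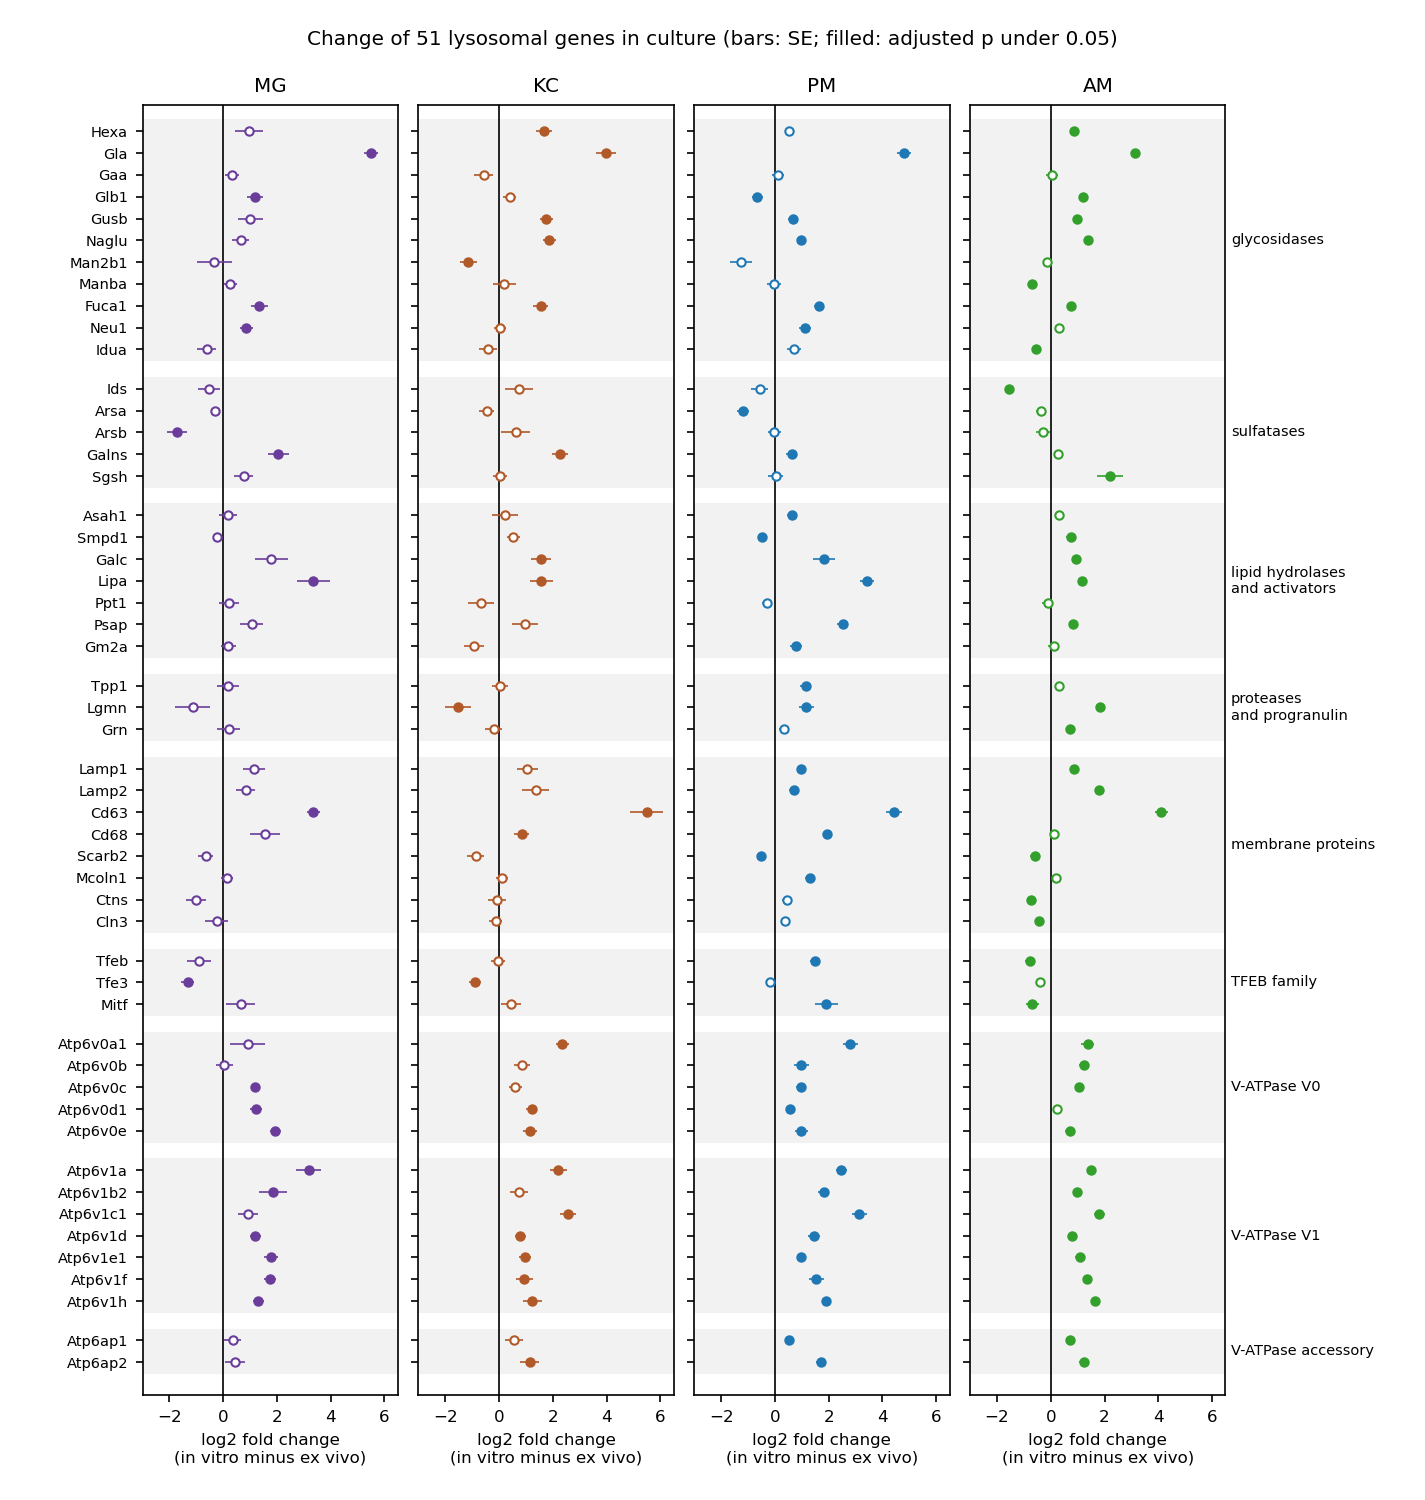
Each point is the log2 fold change (in vitro minus ex vivo, x axis) of 1 of the 51 genes (y axis, grouped by class) in MG, KCs, PMs or AMs, with its SE as a bar; filled points had an adjusted p under 0.05 by edgeR's quasi-likelihood test. The V-ATPase points lie to the right of 0 in all 4 panels, while the points of the TFEB family lie on both sides.

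**Figure D2:**
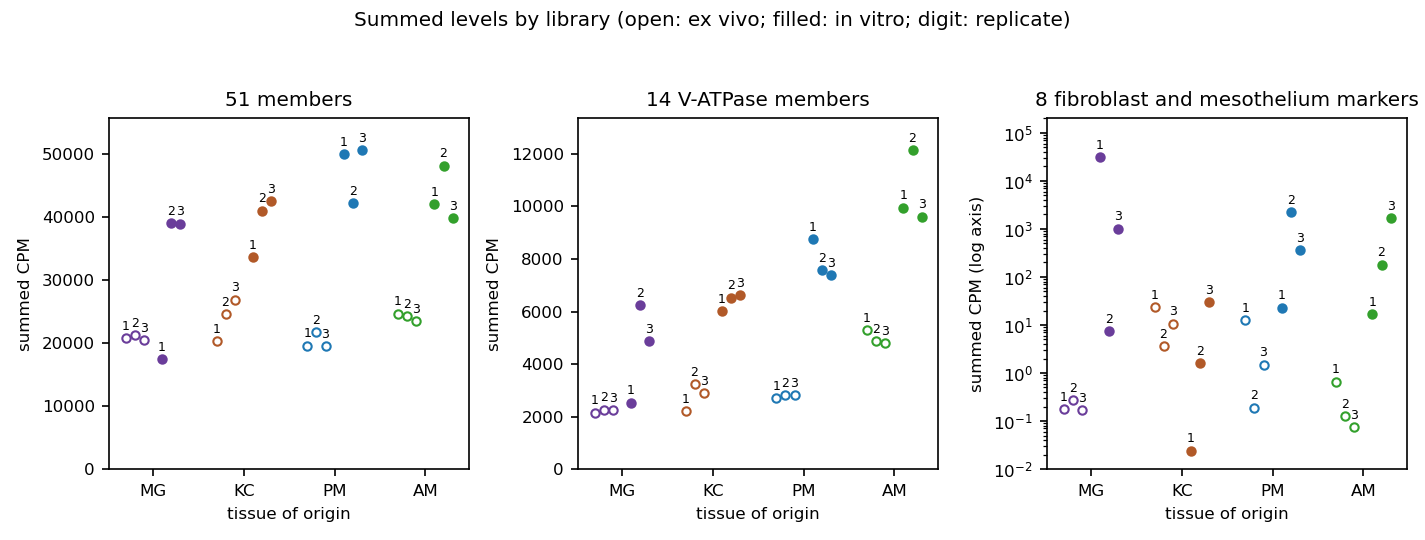
Summed CPM of the 51 genes, of the 14 V-ATPase genes and of 8 fibroblast and mesothelium markers (log axis) in each of the 24 libraries, open for ex vivo and filled for in vitro, with the replicate number above each point. MG-LC replicate 1 has the lowest sum of the 51 genes among the cultures, 17455 CPM, and the highest sum of the stromal markers, 30979 CPM.

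The MG comparison depended on that library. Of the 51 genes, 35 rose and 4 fell when MG-LC replicate 1 was left out, against 28.9% and 25.8% of all genes, and the median log2 fold change was 1.09. Of the 14 V-ATPase genes 13 rose in that fit, against 9 with all libraries, and of the 26 hydrolases and cofactors 16 rose, against 6. Atp6v0a1, Lamp1, Cd68 and Hexa were not called with all 6 libraries and were called without it. The log2 fold change (± SE) of Cd68, which encodes a heavily glycosylated macrophage membrane protein, was 1.56 ± 0.55, adjusted p = 0.0592 with it and 1.97 ± 0.16, adjusted p = 0.000489 without it. In contrast, Gla, Lipa, Arsb and Tfe3 kept their direction and their call in both fits. Leaving out MG replicate 1 ex vivo instead gave 10 genes called higher in vitro, and ended the call of Arsb (adjusted p = 0.0542). In PMs the count fell from 34 to between 20 and 32 when 1 library was left out, with 20 without PM replicate 3 and 21 without PM replicate 1 ex vivo, and in KCs it was 13 without KC-LC replicate 3. From the fit without MG replicate 1 ex vivo on, the share of all genes called was not counted. The part of the stromal transcripts in these differences was not tested.

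Those of the 14 listed V-ATPase genes that were called rose in vitro, in every tissue. Of the 14, 9 in MG, 10 in KCs, 13 in AMs and 14 in PMs rose, with none called lower. The shares of all genes that rose were 25.2% in MG, 14.4% in KCs, 25.9% in AMs and 16.8% in PMs. All 14 fitted log2 fold changes were above 0 in each tissue, but that of Atp6v0b in MG, where its mean was 358 CPM ex vivo and 357 CPM in vitro, turned below 0 in 7 of 14 alternatives, and that of Atp6v0d1 in AMs in 1. Their median log2 fold change was 1.21 in MG, 1.06 in KCs, 1.15 in AMs and 1.498 in PMs. The summed level of the 14 went from 2217 ± 62.6 to 4545 ± 1882 CPM in MG, from 2778 ± 522 to 6390 ± 330 CPM in KCs, from 2773 ± 60.2 to 7910.3 ± 736 CPM in PMs and from 4990 ± 272 to 10568 ± 1371 CPM in AMs. In all, 6 of them, Atp6v0e, Atp6v1a, Atp6v1d, Atp6v1e1, Atp6v1f and Atp6v1h, rose in all 4 tissues. In KCs the calls of Atp6v1f and Atp6v1d held in 5 and 8 of 14 alternatives, with adjusted p up to 0.135 and 0.102. Over all classes 10 of the 51 did so, the others being Gla, Fuca1, Lipa and Cd63, against 3.87% of the 11777 genes tested in every tissue.

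Atp6v1a encodes the catalytic subunit of V1. Ex vivo its level was 66.5, 66.4 and 67.6 CPM in MG, 129.9, 214 and 195 CPM in KCs, 291, 283 and 251 CPM in AMs and 184, 182 and 202 CPM in PMs. In vitro it was 256, 866 and 654 CPM in MG-LCs, 769, 689.8 and 1079 CPM in KC-LCs, 1195, 774 and 1196 CPM in PM-LCs and 740.4, 872 and 685 CPM in AM-LCs. The cultured and sorted libraries did not overlap in any tissue, and MG-LC replicate 1 was the lowest cultured value. Such separation within a tissue was common. For MG, all 3 cultured libraries lay above the 3 sorted ones for 30.1% of the genes tested and below them for 35.3%. The shares above and below were 27.1% and 27.0% for KCs, 31.0% and 30.7% for AMs, and 24.4% and 24.4% for PMs. The log2 fold change (± SE) was 3.19 ± 0.47, adjusted p = 0.00407 in MG, 2.20 ± 0.31, adjusted p = 0.00244 in KCs, 1.48 ± 0.13, adjusted p = 0.000209 in AMs and 2.48 ± 0.22, adjusted p = 0.000321 in PMs. Its partner in the ATP-hydrolysing ring, Atp6v1b2, rose in MG (1.85), PMs (1.83) and AMs (0.97) and was not called in KCs (0.72, adjusted p = 0.131).

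Atp6v1e1 encodes a peripheral stalk subunit. It was at 84.4, 88.9 and 95.2 CPM in sorted MG and 203, 374 and 326 CPM in MG-LCs, and at 185, 227 and 196 CPM in sorted KCs and 369.8, 423 and 436 CPM in KC-LCs. In PMs it went from 272, 288 and 299.7 to 617, 583 and 499 CPM and in AMs from 548, 438 and 454 to 842, 1229 and 947 CPM. Each set of 3 cultured libraries lay above its sorted libraries. The log2 fold changes were 1.79 ± 0.26, adjusted p = 0.00407 in MG, 0.98 ± 0.22, adjusted p = 0.0122 in KCs, 1.08 ± 0.17, adjusted p = 0.00248 in AMs and 0.98 ± 0.16, adjusted p = 0.00376 in PMs.

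Atp6v1h encodes a regulatory subunit that joins V1 to V0. Sorted libraries held 62.6, 68.4 and 69.6 CPM in MG, 47.7, 127 and 108 CPM in KCs, 171, 146 and 143 CPM in AMs and 97.6, 98.7 and 94.4 CPM in PMs. Cultured libraries held 132, 191 and 159.8 CPM in MG-LCs, 262, 204 and 216 CPM in KC-LCs, 468, 518 and 457 CPM in AM-LCs and 414, 374 and 312 CPM in PM-LCs. No cultured library overlapped with the sorted libraries of its tissue, and KC replicate 1 was the lowest sorted value. The log2 fold change was 1.31 ± 0.19, adjusted p = 0.00374 in MG, 1.24 ± 0.36, adjusted p = 0.0325 in KCs, 1.66 ± 0.12, adjusted p = 0.000129 in AMs and 1.92 ± 0.17, adjusted p = 0.000284 in PMs. Leaving out KC replicate 3 ex vivo, or any 1 of the 3 KC-LC libraries, ended the call in KCs, with adjusted p between 0.0662 and 0.0937. So did a replicate block (adjusted p = 0.0540) and scaling to total counts (adjusted p = 0.0504).

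The change was unequal among subunits. Atp6v1c1, which encodes the subunit that clamps V1 onto the stalks, went from 80.5, 85.9 and 84.5 to 928, 820.1 and 477 CPM in PMs, a log2 fold change of 3.14 ± 0.27, adjusted p = 0.000269, and also rose in KCs (2.56) and AMs (1.81). In MG it was at 169, 174 and 185 CPM ex vivo and 172, 456 and 345 CPM in vitro, with replicate 1 among the sorted values, and was not called (0.92 ± 0.36, adjusted p = 0.0763). Atp6v0a1, the large V0 subunit that forms a path for protons, rose in KCs (2.36), PMs (2.80) and AMs (1.37). Atp6v0c, which encodes the proteolipid of the V0 ring, rose in MG (1.19), PMs (0.96) and AMs (1.04), with 2 annotated pseudogenes that could share its reads. The smallest changes were those of Atp6v0b in MG (0.04, adjusted p = 0.927) and Atp6v0d1 in AMs (0.25, adjusted p = 0.0773). The accessory protein genes Atp6ap1 and Atp6ap2, the second also known as the prorenin receptor, rose in PMs (0.53 and 1.71) and AMs (0.72 and 1.23), and Atp6ap2 in KCs (1.14).

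**Figure D3:**
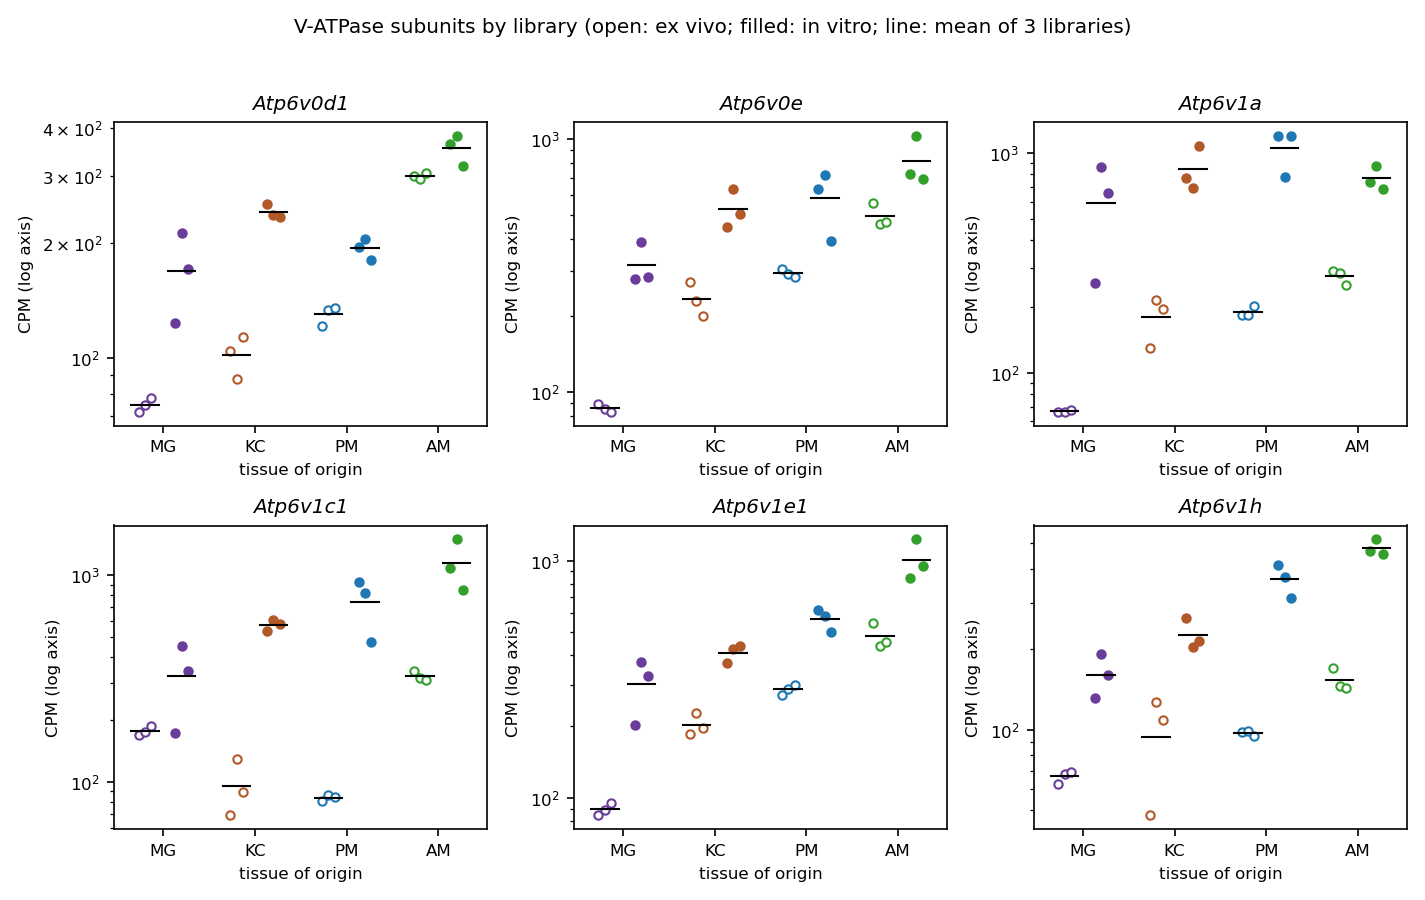
CPM (log axis) of 6 V-ATPase genes in each library by tissue of origin, open for ex vivo and filled for in vitro, with a line at the mean of 3 libraries. Sorted AMs lie above the other sorted cells for Atp6v0d1 (294 to 306 CPM) and Atp6v1e1 (438 to 548 CPM), and the cultured points lie above the sorted points of the same tissue in all panels but that of Atp6v1c1 in MG.

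Several V-ATPase subunits have an alternative isoform, not counted among the 51. Atp6v0d2, the isoform of Atp6v0d1 known from osteoclasts and some macrophages, was near the floor in sorted MG (0.407 ± 0.382 CPM) and sorted PMs (0.604 ± 0.315 CPM) and reached 163 ± 139 CPM in MG-LCs and 1694 ± 293 CPM in PM-LCs. The log2 fold change was 8.69 ± 1.40, adjusted p = 0.00533 in MG and 11.46 ± 0.54, adjusted p = 3.03e-05 in PMs. In AMs, by contrast, it was already at 1828 ± 58.6 CPM ex vivo and at 2624 ± 842 CPM in vitro (0.52 ± 0.21, adjusted p = 0.0754). In KCs it was at 38.4 ± 40.1 and 207 ± 144 CPM, which was not called (2.42 ± 0.90, adjusted p = 0.074). Of the isoforms of Atp6v0a1, Tcirg1 rose in PMs (2.37) and AMs (1.20), whereas Atp6v0a2 fell in MG, from 290.4 ± 12.8 to 61.5 ± 13.4 CPM (-2.19 ± 0.22, adjusted p = 0.00153). Atp6v1g1, a further stalk subunit, rose in MG (1.44), KCs (1.73), PMs (1.91) and AMs (1.22). Atp6v0e2 stayed at low levels, rising in MG from 0.407 ± 0.0677 to 12.2 ± 7.34 CPM and in PMs from 0.2405 ± 0.118 to 3.69 ± 1.83 CPM.

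Glycosidases, which trim sugars from glycoproteins, glycolipids and glycosaminoglycans, were mixed. Of 11, 4 rose and none fell in MG (25.2% and 21.2% of all genes), and 5 rose and 1 fell in KCs (14.4% and 19.4%). In PMs 5 rose and 1 fell (16.8% and 12.1%), and in AMs 6 rose and 2 fell (25.9% and 22.9%). The median log2 change was 0.86 in MG, 0.40 in KCs, 0.77 in AMs and 0.67 in PMs. Gla and Fuca1 rose in all 4 tissues, while Gaa, the acid α-glucosidase that degrades glycogen, was called in none, its log2 fold change lying between -0.58 in KCs and 0.32 in MG.

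Gla, which encodes the α-galactosidase that removes terminal galactose from globosides, had the largest change of the 51 genes in MG and PMs. In MG it went from 4.21, 2.95 and 4.37 CPM ex vivo to 145, 199.9 and 159 CPM in vitro, and in KCs from 13.2, 20.9 and 8.76 to 188, 240.3 and 256 CPM. In PMs it went from 10.3, 13.6 and 13.97 to 456, 309 and 287 CPM, and in AMs from 50.7, 39.4 and 37.5 to 348, 435 and 345 CPM. All cultured libraries, MG-LC replicate 1 included, lay far above the sorted libraries, among which AMs were the highest and MG the lowest. On the log2 scale the change was 5.49 ± 0.26, adjusted p = 0.000581 in MG, 3.97 ± 0.37, adjusted p = 0.00056 in KCs, 3.15 ± 0.17, adjusted p = 4.85e-05 in AMs and 4.79 ± 0.27, adjusted p = 4.97e-05 in PMs. These correspond to ratios of 45.02 in MG, 15.7 in KCs, 8.88 in AMs and 27.7 in PMs.

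Glb1, the β-galactosidase that acts on GM1 ganglioside and keratan sulfate, differed in direction. It was at 95.7, 97.3 and 98.3 CPM in sorted MG and 139, 202 and 301 CPM in MG-LCs, and at 80.5, 79.7 and 77.6 CPM in sorted AMs and 191, 149.9 and 193 CPM in AM-LCs. In PMs it was at 400.2, 479 and 398 CPM ex vivo and 235, 242 and 331 CPM in vitro. The cultured libraries were higher in MG and AMs and lower in PMs, with no overlap in any of these 3 tissues. Its log2 fold change was 1.18 ± 0.29, adjusted p = 0.0193 in MG, 1.18 ± 0.14, adjusted p = 0.000761 in AMs and -0.66 ± 0.20, adjusted p = 0.046 in PMs. The call in PMs rested on single libraries, since leaving out any of 5 of the 6 gave an adjusted p between 0.0629 and 0.14995. It was also lost with a replicate block (adjusted p = 0.104) and with no filter on low counts (adjusted p = 0.0714).

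Of the other glycosidases, Fuca1, the α-fucosidase, rose by 1.35 on the log2 scale in MG, 1.55 in KCs, 0.77 in AMs and 1.63 in PMs. Gusb, the β-glucuronidase, and Naglu, which acts on heparan sulfate, rose in KCs (1.76 and 1.88), PMs (0.67 and 0.99) and AMs (0.98 and 1.39). Hexa, the α subunit of β-hexosaminidase, rose in KCs (1.67) and AMs (0.88). Man2b1, the α-mannosidase, went the other way in KCs, from 1383, 1667 and 2140.0 to 719, 669.9 and 1028 CPM (-1.14 ± 0.31, adjusted p = 0.0263). Leaving out any of 4 of the 6 KC libraries ended that call, with adjusted p between 0.0622 and 0.120. So did the model of all 24 libraries (adjusted p = 0.0639). In PMs Man2b1 was at 2371, 2861 and 2086 CPM ex vivo and 882, 519.9 and 1673 CPM in vitro, without overlap, and was not called (-1.25 ± 0.41, adjusted p = 0.0585). Manba (-0.70) and Idua (-0.56) fell in AMs, and the sialidase gene Neu1 rose in MG (0.86) and PMs (1.105).

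Sulfatases, which remove sulfate from glycosaminoglycans and sulfatide, showed no common direction. Of 5, 1 rose and 1 fell in MG (25.2% and 21.2% of all genes), PMs (16.8% and 12.1%) and AMs (25.9% and 22.9%). In KCs 1 rose (14.4%). Galns, which acts on keratan sulfate, went from 17.5, 17.99 and 21.4 to 38.6, 72.8 and 118 CPM in MG and from 12.3, 17.6 and 9.79 to 80.3, 62.2 and 53.3 CPM in KCs. In PMs it went from 59.9, 46.7 and 48.96 to 72.5, 75.6 and 91.2 CPM, and in AMs from 129, 122 and 120.5 to 126, 157 and 159 CPM. The groups were apart in MG, KCs and PMs and overlapped in AMs, the highest sorted cells. The change was, as log2 fold (± SE), 2.05 ± 0.40, adjusted p = 0.0091 in MG, 2.27 ± 0.30, adjusted p = 0.00201 in KCs, 0.27 ± 0.14, adjusted p = 0.151 in AMs and 0.62 ± 0.19, adjusted p = 0.046 in PMs. The call in PMs held in 4 of 14 alternatives, with adjusted p up to 0.171.

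Arsb, which acts on dermatan sulfate, fell in MG from 294, 250.4 and 214 to 38.9, 89.4 and 95.2 CPM (-1.72 ± 0.37, adjusted p = 0.0121), and the other tissues held between 14.4 and 78.04 CPM in either state. Genes on the opposite strand overlap 39.9% of its exon bases. The libraries do not mark strand, so reads of these genes cannot be told apart from those of Arsb over these bases. Ids, the iduronate sulfatase, fell in AMs from 110.3, 116 and 112 to 45.4, 34.6 and 36.1 CPM (-1.53 ± 0.13, adjusted p = 0.000199), and the 3 cultured libraries lay below the sorted ones. Arsa, which degrades sulfatide, fell in PMs from 129, 128 and 115 to 52.2, 43.3 and 67.4 CPM (-1.19 ± 0.21, adjusted p = 0.00568), and a gene on the opposite strand overlaps 18.8% of its exon bases. Sgsh, a heparan sulfate sulfamidase, was at 0.628, 0.921 and 1.47 CPM in sorted AMs and 5.91, 3.09 and 4.95 CPM in AM-LCs (2.22 ± 0.48, adjusted p = 0.00802), far below its level in every other group, where it lay between 19.3 and 57.2 CPM. Opposite-strand overlap covers 21.6% of the exon bases of Sgsh.

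Of the 7 lipid hydrolases and activators, 5 rose and 1 fell in PMs (16.8% and 12.1% of all genes). In AMs 4 rose (25.9%), in KCs 2 (14.4%) and in MG 1 (25.2%), with none called lower. The median log2 change was 0.21 in MG, 0.53 in KCs, 0.75 in AMs and 0.79 in PMs. Lipa encodes lysosomal acid lipase, which frees cholesterol and fatty acids from lipoproteins. It went from 158, 172 and 164 to 511, 2371 and 2036 CPM in MG and from 425, 1013 and 1195 to 2187, 2675 and 3158 CPM in KCs. In PMs it went from 299, 385 and 357 to 4304, 2579.5 and 4322 CPM, and in AMs from 1169, 1027 and 1013 to 2366, 2496 and 2288 CPM. Cultured and sorted libraries did not overlap in any tissue, and MG-LC replicate 1 was again the lowest culture. By log2 fold change it was 3.36 ± 0.61, adjusted p = 0.00736 in MG, 1.57 ± 0.42, adjusted p = 0.0246 in KCs, 1.16 ± 0.12, adjusted p = 0.000402 in AMs and 3.43 ± 0.26, adjusted p = 0.000177 in PMs. In KCs the call was lost without replicate 2 ex vivo, replicate 2 in vitro or replicate 3 in vitro, with adjusted p between 0.0625 and 0.0741.

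Galc, the galactosylceramidase, rose in KCs (1.55), PMs (1.83) and AMs (0.94). Psap, the precursor of the saposins that present lipids to hydrolases, reached 10983, 9067 and 12973 CPM in PM-LCs from 1934, 1888 and 1939.7 CPM ex vivo (2.52 ± 0.19, adjusted p = 0.000176), and also rose in AMs (0.82). Asah1, the acid ceramidase, and Gm2a, the ganglioside activator, rose in PMs (0.63 and 0.79). Smpd1, the acid sphingomyelinase, rose in AMs from 42.7, 49.6 and 45.8 to 71.02, 68.00 and 90.7 CPM (0.75 ± 0.17, adjusted p = 0.00914) and fell in PMs from 87.5, 91.3 and 85.03 to 67.6, 62.6 and 57.5 CPM (-0.49 ± 0.15, adjusted p = 0.0464), a call lost in 7 of 14 alternatives, with adjusted p up to 0.1397. In MG it was at 93.9, 94.9 and 86.1 CPM ex vivo and 80.6, 65.9 and 82.5 CPM in vitro, and in KCs at 31.4, 43.2 and 45.4 and 55.7, 67.8 and 54.7 CPM, and was called in neither. Ppt1, the palmitoyl-protein thioesterase, was called in none of the 4 tissues.

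Of the 3 genes for proteases and progranulin, Lgmn, an asparaginyl endopeptidase, changed in opposite directions. It was at 3226, 3465 and 3663 CPM in sorted MG and 520.3, 1125 and 2929 CPM in MG-LCs, and at 932, 2928 and 2330.4 CPM in sorted KCs and 474, 756 and 953 CPM in KC-LCs. In PMs it went from 550.0, 519 and 505 to 1285, 703 and 1556 CPM and in AMs from 207, 205 and 202 to 872, 711 and 609 CPM. The cultured libraries were lower in MG, higher in PMs and AMs, and overlapped with the sorted libraries in KCs, where KC replicate 1 was far below the other sorted libraries. The fitted log2 fold change was -1.14 ± 0.66, adjusted p = 0.192 in MG, -1.53 ± 0.47, adjusted p = 0.0401 in KCs, 1.84 ± 0.14, adjusted p = 0.000132 in AMs and 1.17 ± 0.29, adjusted p = 0.0223 in PMs. Leaving out any KC library other than KC replicate 1 ex vivo ended the call in KCs, with adjusted p between 0.0689 and 0.127. Tpp1, a tripeptidyl peptidase, rose in PMs (1.14), and Grn, which encodes progranulin, rose in AMs (0.71).

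**Figure D4:**
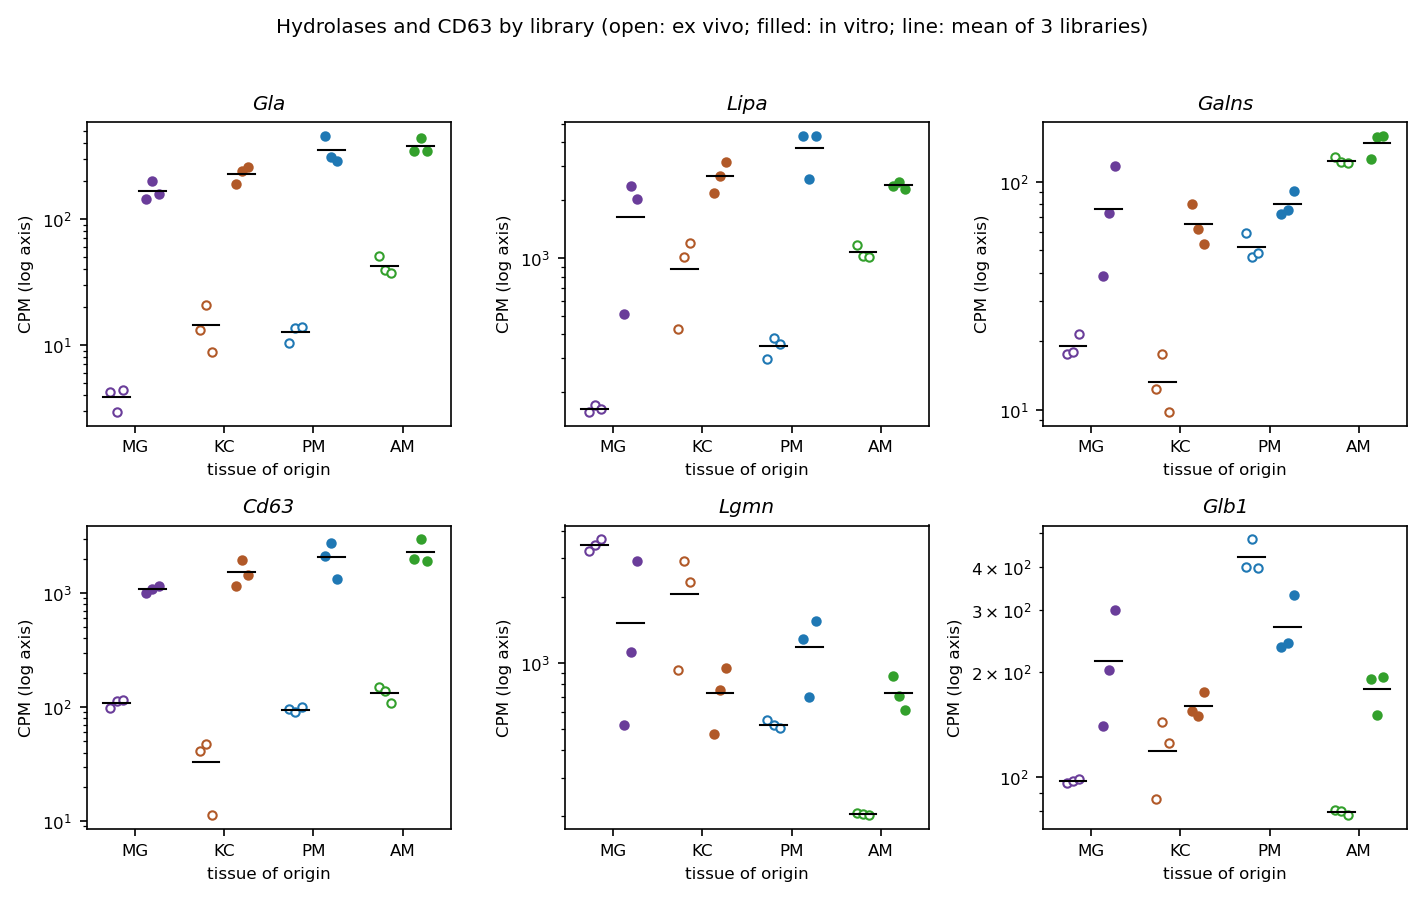
CPM (log axis) of Gla, Lipa, Galns, Cd63, Lgmn and Glb1 in each library by tissue of origin, open for ex vivo and filled for in vitro, with a line at the mean of 3 libraries. Gla and Cd63 are higher in every cultured library than in every sorted library, Lgmn is highest in sorted MG (3226 to 3663 CPM), and Glb1 is highest in sorted PMs (398 to 479 CPM).

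Membrane proteins of the lysosome were mixed, and Cd63 was the member of this class that rose in all 4 tissues. Of 8, 1 rose in MG (25.2% of all genes) and 2 rose in KCs (14.4%). In PMs 5 rose and 1 fell (16.8% and 12.1%), and in AMs 3 rose and 3 fell (25.9% and 22.9%). Cd63, a tetraspanin of late endosomes and lysosomes, went from 97.6, 114 and 115 to 998, 1078 and 1158 CPM in MG and from 41.2, 47.3 and 11.3 to 1152, 1963 and 1442 CPM in KCs. In PMs it went from 96.3, 89.8 and 99.6 to 2123, 2722 and 1321 CPM and in AMs from 149, 139.6 and 109 to 1988, 2953 and 1924 CPM. The lowest cultured library, at 998 CPM, lay above the highest sorted library, at 149 CPM. On the log2 scale the change was 3.36 ± 0.24, adjusted p = 0.000784 in MG, 5.49 ± 0.61, adjusted p = 0.00109 in KCs, 4.12 ± 0.23, adjusted p = 5.16e-05 in AMs and 4.43 ± 0.30, adjusted p = 0.000112 in PMs. Cd63 was close in MG-LC replicate 1 and the other MG-LC libraries, and fibroblasts also express it. An annotated pseudogene, Cd63-ps, could share its reads.

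Lamp1 and Lamp2, the main glycoproteins of the lysosomal membrane, rose in PMs (0.96 and 0.73) and AMs (0.86 and 1.80). In KCs their log2 fold changes were 1.06 and 1.36 without a call (adjusted p = 0.0645 and 0.0727), and Lamp2 was at 173, 764 and 646 CPM in the sorted KC libraries, with replicate 1 the lowest. Cd68 rose in PMs (1.95) and, next to the threshold, in KCs (0.84, adjusted p = 0.048). Scarb2, the receptor that carries β-glucocerebrosidase to lysosomes, had a log2 fold change below 0 in all 4 tissues and fell in PMs (-0.51) and AMs (-0.59). Mcoln1, the calcium channel in the endolysosomal membrane, rose in PMs from 51.4, 52.4 and 60.3 to 140.2, 139 and 122 CPM (1.29 ± 0.16, adjusted p = 0.0013) and lay between 0.11 and 0.18 on the log2 scale in the other tissues. Ctns, the cystine transporter, and Cln3 fell in AMs (-0.72 and -0.45).

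The 3 genes of the TFEB family showed no common direction. In MG 1 fell (21.2% of all genes), in KCs 1 fell (19.4%), in PMs 2 rose (16.8%) and in AMs 2 fell (22.9%). Tfeb was at 27.3, 30.5 and 30.1 CPM in sorted PMs and 76.95, 71.9 and 96.1 CPM in PM-LCs, and at 88.5, 95.2 and 115 CPM in sorted AMs and 48.02, 75.7 and 49.8 CPM in AM-LCs. In MG it was at 69.2, 73.5 and 66.2 CPM ex vivo and 14.1, 55.04 and 39.95 CPM in vitro, and in KCs at 52.5, 61.5 and 50.6 and 39.97, 62.7 and 62.3 CPM. The cultured libraries were higher in PMs, lower in AMs and MG, and overlapped with the sorted libraries in KCs. Its log2 fold change was 1.48 ± 0.19, adjusted p = 0.00146 in PMs, -0.78 ± 0.20, adjusted p = 0.0146 in AMs, -0.90 ± 0.46, adjusted p = 0.148 in MG and -0.03 ± 0.25, adjusted p = 0.939 in KCs. The AM call was lost without replicate 3 ex vivo (adjusted p = 0.0603) and in the model of all 24 libraries (adjusted p = 0.0698). In MG Tfeb was lowest in replicate 1, and without it the change was -0.50 ± 0.16, adjusted p = 0.0441.

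Tfe3 was lower in vitro in each tissue by its mean. It went from 251, 268 and 265 to 71.8, 126 and 108 CPM in MG and from 139.8, 195 and 179.8 to 92.1, 84.4 and 105 CPM in KCs, a fall in both. In PMs it was at 136, 151 and 135 CPM ex vivo and 110.4, 121 and 144 CPM in vitro, and in AMs at 67.3, 86.2 and 85.5 and 66.6, 53.7 and 60.8 CPM. The groups were apart in MG, KCs and AMs and overlapped in PMs. The change was, as log2 fold (± SE), -1.32 ± 0.24, adjusted p = 0.00763 in MG, -0.90 ± 0.22, adjusted p = 0.0181 in KCs, -0.39 ± 0.15, adjusted p = 0.0648 in AMs and -0.17 ± 0.17, adjusted p = 0.502 in PMs. In KCs the call was lost without replicate 2 ex vivo, replicate 1 in vitro or replicate 2 in vitro, with adjusted p between 0.0639 and 0.0910. Scaled to total counts, Tfe3 fell in AMs too, by 0.76 on the log2 scale (adjusted p = 0.00999), and it also passed without replicate 1 ex vivo (adjusted p = 0.0357).

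Mitf, known for its role in pigment cells and osteoclasts, was at 19.1, 21.1 and 21.2 CPM in sorted PMs and 75.7, 35.4 and 120.2 CPM in PM-LCs, and at 38.6, 54.3 and 36.7 CPM in sorted AMs and 22.1, 35.1 and 23.5 CPM in AM-LCs. In MG it was at 24.7, 26.2 and 18.5 CPM ex vivo and 11.1, 46.7 and 48.2 CPM in vitro, and in KCs at 39.8, 20.98 and 26.4 and 24.1, 41.4 and 56.4 CPM. The cultured libraries were higher in PMs, lower in AMs, and overlapped with the sorted libraries in MG and KCs. By log2 fold change it was 1.92 ± 0.42, adjusted p = 0.0137 in PMs, -0.68 ± 0.24, adjusted p = 0.0486 in AMs, 0.65 ± 0.53, adjusted p = 0.341 in MG and 0.45 ± 0.38, adjusted p = 0.399 in KCs. In MG the change was 1.09 ± 0.17, adjusted p = 0.00467 without MG-LC replicate 1. The PM call was lost without any 1 of the sorted PM libraries (adjusted p between 0.0577 and 0.0641), and the AM call without any 1 of 5 AM libraries (between 0.0646 and 0.165). The AM call was also lost in the model of all 24 libraries (adjusted p = 0.272) and with RLE scaling (adjusted p = 0.0580).

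**Figure D5:**
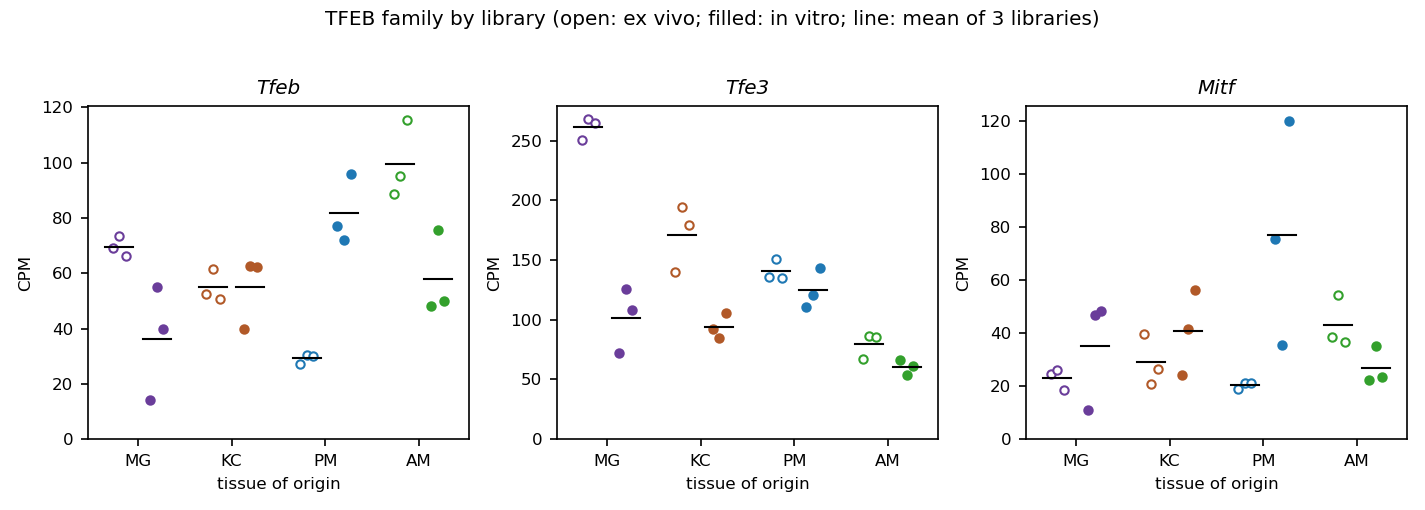
CPM of Tfeb, Tfe3 and Mitf in each library by tissue of origin, open for ex vivo and filled for in vitro, with a line at the mean of 3 libraries. Tfeb is higher in PM-LCs (71.9 to 96.1 CPM) than in sorted PMs (27.3 to 30.5 CPM) and lower in AM-LCs than in sorted AMs, and Tfe3 is highest in sorted MG (251 to 268 CPM).

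Among the 46 genes with a window, the median log2 fold change of the 14 with the motif was 0.71 in MG, 0.62 in KCs, 1.02 in AMs and 0.97 in PMs. For the 32 without it the median was 0.54 in MG, 0.61 in KCs, 0.72 in AMs and 0.87 in PMs. Of the 14, 5, 5, 9 and 9 rose in MG, KCs, PMs and AMs, and of the 32, 8, 12, 20 and 17. Genes called higher in vitro in all 4 tissues were found on both sides. Gla, Atp6v1a and Atp6v0e had a match, Cd63, Lipa, Fuca1, Atp6v1d, Atp6v1e1 and Atp6v1f had none, and Atp6v1h had no window. No test was made of this split.

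The sorted populations differed from each other in 42 of the 51 genes (edgeR quasi-likelihood F test over the 4 tissues, with Benjamini-Hochberg adjustment), when 70.9% of all genes differed, and 83.4% of those above 5 on the log2 CPM scale. The 3 sorted AM libraries lay above the other 9 sorted libraries for 18 of the 51 genes, against 13.1% of all genes, and 11 of the 18 were V-ATPase genes. The 3 sorted MG libraries lay below the other 9 for 10 genes, against 12.9% of all genes, and 7 of these were V-ATPase genes. Sorted AMs were below the other 9 for 6 genes (Glb1, Man2b1, Sgsh, Lgmn, Grn and Tfe3), against 9.64% of all genes, and sorted KCs for 4 (Gusb, Naglu, Ids and Cd63), against 3.57%. By mean level, 13 of the 14 V-ATPase genes were highest in AMs, the exception being Atp6v0a1, which was highest in MG. The lowest mean was in MG for 10 of the 14, in PMs for 3 and in KCs for 1. The hydrolases had no such order, and 10 of the 26 were highest in AMs, 7 in MG, 6 in PMs and 3 in KCs.

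Galns had the smallest p of the 51 (adjusted p = 2.31e-07) and ranged from 9.79 to 17.6 CPM in KCs to 120.5 to 129 CPM in AMs, with MG between KCs and PMs and overlapping KCs. Atp6v1e1 (adjusted p = 2.41e-07) and Atp6v0d1 (adjusted p = 2.53e-07) were highest in AMs and lowest in MG. Sorted Atp6v0d1 was at 300.4, 294 and 306 CPM in AMs, 121, 133 and 135 CPM in PMs, 104, 88.00 and 113 CPM in KCs and 72.01, 75.00 and 78.1 CPM in MG, with neighbouring tissues apart. Glb1 (adjusted p = 3.17e-07) was highest in PMs, which also lay above all other sorted libraries for Hexa, Arsa and Lamp2. MG were the highest for Lgmn, Arsb, Tfe3, Naglu and Atp6v0a1, KCs for Grn, and the 3 sorted PM libraries were the lowest for Tfeb, Cd68, Mcoln1 and Cln3. Not all genes set apart in this way passed the test among sorted populations. Cln3, below in PMs (adjusted p = 0.0733), Ids, below in KCs (0.05001), and Atp6ap1, above in AMs (0.0747), did not. The shares of all genes with the 3 libraries above the other 9 were 17.2% for MG, 7.78% for KCs and 8.84% for PMs, and the share below for PMs was 5.56%.

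Fewer of the genes passed the same test among the cultures. Of the 51 genes, 9 passed among the 4 cultures, when 7.85% of all genes did (10.5% of those above 5 on the log2 CPM scale), and 6 of the 9 were V-ATPase genes (Atp6v0c, Atp6v0d1, Atp6v1c1, Atp6v1d, Atp6v1e1 and Atp6v1h). The others were Gla, Sgsh and Tfe3, of which Tfe3 lay next to the threshold (adjusted p = 0.0499, with Atp6v0e just outside at 0.0501). Without MG-LC replicate 1, 16 of the 51 passed, when 12.0% of all genes did, and 9 of the 16 were V-ATPase genes, with Atp6v1b2, Atp6ap1 and Atp6ap2 added and Idua, Arsb, Galns and Cd68 added among the other classes. The smallest p was that of Atp6v1h (0.00367 after adjustment), which was at 132 to 191 CPM in MG-LCs, 204 to 262 CPM in KC-LCs, 312 to 414 CPM in PM-LCs and 457 to 518 CPM in AM-LCs, with no overlap between neighbours in that order. Atp6v1e1 (adjusted p = 0.00712) went from 203 to 374 CPM in MG-LCs to 842 to 1229 CPM in AM-LCs, with MG-LCs and KC-LCs overlapping. Atp6v0d1 was at 319 to 382 CPM in AM-LCs and 123 to 213 CPM in MG-LCs (adjusted p = 0.019), and that call was lost without any 1 of 5 libraries, with adjusted p between 0.0510 and 0.123. Scaling to total counts ended it too (adjusted p = 0.0574). Without AM-LC replicate 2 the count of 9 became 2, and the share of all genes was not counted in that fit. Sgsh was lowest in AM-LCs (adjusted p = 0.00551).

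All 14 V-ATPase genes had their lowest cultured mean in MG-LCs, and 12 had their highest in AM-LCs. Without MG-LC replicate 1, an alternative chosen after seeing the data, the lowest mean was in MG-LCs for 12 and in KC-LCs for 2 (Atp6v0a1 and Atp6v1b2). The 3 AM-LC libraries lay above the other 9 cultures for 11 of the 51 genes, against 7.53% of all genes, 8 of them V-ATPase genes, the others being Neu1, Galns and Mcoln1. They lay below the other 9 for Sgsh and Tfe3 (4.71% of all genes), and the MG-LC libraries lay below for Fuca1, Atp6v0e, Atp6v1c1 and Atp6v1h (1.13%). With all libraries, only 5 of the 11 genes above in AM-LCs passed the test among the cultures. Sgsh and Tfe3 passed it, as did 2 of the 4 genes below in MG-LCs. None of the 51 had the 3 MG-LC (1.11% of all genes), KC-LC (0.689%) or PM-LC (1.40%) libraries above the other 9. The ratio of the highest to the lowest tissue mean had a median of 2.54 over the 51 genes ex vivo and 1.99 in vitro, and was smaller in vitro for 42 of the 51. The same was true of 77.9% of the 13582 genes tested in both states. For the V-ATPase genes the median ratio was 3.00 ex vivo and 2.48 in vitro.

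The change in culture differed among tissues for 25 of the 51 genes (F test of the tissue by state interaction over all 24 libraries), when 36.3% of all genes did (53.1% of those above 5 on the log2 CPM scale). The TFEB family passed with all 3 members, and the V-ATPase with 5 of 14 (Atp6v0a1, Atp6v0d1, Atp6v0e, Atp6v1a and Atp6v1c1). The smallest p was that of Smpd1 (adjusted p = 0.000392), whose change was above 0 in AMs and KCs and below 0 in PMs and MG. It was followed by Glb1 (adjusted p = 0.000527), Gla (adjusted p = 0.000557), for which the rise in AMs was the smallest, and Galns (adjusted p = 0.000887), which rose in MG and KCs more than in PMs. Without MG-LC replicate 1 the count was 34, when 34.4% of all genes passed. Without AM replicate 2 ex vivo it was 19, and the share of all genes was not counted in that fit.

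Compared per length, as TPM, a level divided by the length of the union of exons, the same few genes led in each population. Psap, Cd68, Lamp1, Hexa and Grn were the 5 highest in sorted PMs and AMs and in all 4 cultures, and Lgmn took the place of Hexa in sorted KCs and of Lamp1 in sorted MG, where it was the highest member, at 6139 ± 418 TPM (n = 3). With the longest transcript as the length, Lamp1 stood in place of Hexa in sorted MG. Within the pump, Atp6v0b and Atp6v1f were at 764 and 769 TPM in PM-LCs, and Atp6v0d2, at 2072 ± 24.4 TPM in sorted AMs, exceeded every one of the 14 V-ATPase genes there.

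The wider pathway was described by 83 further genes, of which 76 passed the filter in each tissue. In MG 28 rose and 8 fell (25.2% and 21.2% of all genes), and in KCs 25 rose and 7 fell (14.4% and 19.4%). In PMs 33 rose and 3 fell (16.8% and 12.1%), and in AMs 37 rose and 16 fell (25.9% and 22.9%). The median log2 change was 0.44 in MG, 0.61 in KCs, 0.46 in AMs and 0.55 in PMs. Rragd, a Rag GTPase that brings TFEB to the lysosomal surface, rose in MG from 1.36 ± 0.957 to 48.1 ± 31.5 CPM, in PMs from 1.48 ± 0.465 to 70.9 ± 21.7 CPM, in AMs from 0.235 ± 0.357 to 56.6 ± 2.12 CPM, and in KCs, from near the floor, to 46.99 ± 9.84 CPM. Its adjusted p was 0.00627 in MG, 0.000598 in KCs, 0.000585 in AMs and 0.000128 in PMs. Igf2r, a receptor that delivers mannose-6-phosphate tagged hydrolases, rose in MG from 1.17 ± 0.789 to 154 ± 62.8 CPM and in AMs from 0.8097 ± 0.609 to 108 ± 33.5 CPM. Sort1, another sorting receptor, fell in AMs (-1.89) and rose in KCs (2.85). Tfec, the fourth relative of TFEB, fell in KCs (-2.12) and AMs (-0.99) and rose in MG (4.49). Slc36a1, a lysosomal amino acid transporter, fell in MG (-2.31), KCs (-2.08) and AMs (-1.22). The other large changes were falls of Rptor in MG (-2.62), of Acp2 in KCs (-1.74), of Hgsnat (-1.66), Laptm5 (-1.35) and Lamtor4 (-0.91) in PMs and of Ulk1 in AMs (-1.57), and rises of Fnip2 in KCs (2.15) and Scpep1 in AMs (2.37).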

How the data were processed

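RNA was measured in 24 bulk libraries, 3 in each of 8 groups assigned from the sample labels, which the series describes as biological replicates. Where nothing ties a library to separate animals, p-values measure only the spread between these libraries. The authors deposited raw counts per gene in 1 table of 45706 genes, not normalized, and every column of values was assigned to a sample (0 left out). Libraries were made with a low-input kit and a transposase step that does not mark strand, and read from 1 end. The study's methods name build mm10, whereas the submitters' processing notes name hg19, with Trimmomatic 0.36 and STAR 2.5.2b. The counting strand setting is not given in the sources used here.

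Counts were tested with edgeR 4.0.16 (limma 3.58.1, R 4.3.3), using TMM factors, filterByExpr at a minimum count of 10, and quasi-likelihood tests with Benjamini-Hochberg adjustment over all genes tested, at a threshold of 0.05. Each tissue was fitted on its own 6 libraries, the sorted and cultured populations on their 12 libraries each, and the tissue by state interaction on 24. CPM were computed from TMM-scaled library sizes, and TPM from the union of exons. The test was tested on simulated data. The 51 genes and the lists were chosen with earlier results of these data known. Values in every library were given for the 2 genes with the largest called change in each direction per tissue, up to 6 called one way in all 4 tissues, the 4 with the smallest p in each test over tissues, and the TFEB family; of the other pathway genes, the 3 largest called changes in each direction per tissue and the alternative V-ATPase isoforms were named. Alternatives were RLE and total-count scaling, DESeq2 1.42.0, limma-voom, other filters, 1 model for all libraries, a replicate block and leaving out each library. Some summaries, such as the fits of every test without MG-LC replicate 1, were chosen after seeing the data. Depth was 29569486 to 47105111 reads on genes per library, and the floor of 3 reads covers counting error only.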

Additional observations from a re-analysis of the deposited data

Results flagged for a closer look

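The difference between culture and sorted cells differed among the 4 tissues for 25 of the 51 genes by an F test of the tissue by state interaction (quasi-likelihood, edgeR, with p adjusted by Benjamini-Hochberg), when 36.3% of all genes and 53.1% of genes above 5 on the log2 CPM scale did. Of the 26 hydrolases and cofactors, 13 passed. They were Smpd1 (adjusted p = 0.000392), Glb1 (0.000527), Gla (0.000557), Galns (0.000887), Lgmn (0.000926), Sgsh (0.00572), Lipa (0.00593), Arsb (0.0181), Psap (0.0184), Naglu (0.0188), Gm2a (0.0252), Ids (0.0333) and Neu1 (0.0463). Of the membrane proteins Mcoln1 (adjusted p = 0.00323), Cd63 (0.0174), Cd68 (0.0188) and Ctns (0.0320) passed. Of the V-ATPase genes Atp6v1c1 (0.00202), Atp6v0d1 (0.00429), Atp6v0e (0.0297), Atp6v1a (0.0337) and Atp6v0a1 (0.0423) passed. All 3 genes of the TFEB family passed, Tfeb with an adjusted p of 0.00112, Tfe3 with 0.00637 and Mitf with 0.0273. Glb1, Smpd1, Lgmn, Arsb, Ids, Gm2a, Ctns, Tfeb and Mitf passed with log2 fold changes above 0 in some tissues and below 0 in others. Gla, Naglu, Neu1, Galns, Sgsh, Lipa, Psap, Cd63, Cd68, Mcoln1 and the V-ATPase genes that passed had log2 fold changes above 0 in all 4. Tfe3 had log2 fold changes below 0 in all 4.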

How the results depend on the processing

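Of the counts of genes called, 116 values under the alternatives stayed within 1.5 times the reported count and 15 did not. Shares of all genes called were counted under total counts within each tissue and without MG-LC replicate 1, and under no other alternative. Leaving out 1 library moved the count of the 51 called higher in vitro between 10 and 35 in MG, 13 and 22 in KCs, 28 and 30 in AMs and 20 and 32 in PMs. The count that differed among sorted populations lay between 39 and 47, among cultures between 2 (without AM-LC replicate 2) and 16 (without MG-LC replicate 1), and for the interaction between 19 (without AM replicate 2) and 34 (without MG-LC replicate 1). Among cultures it was 5 with scaling to total counts, 23 with DESeq2 and 20 in the model of all 24 libraries. In the main fit it was 9, when 7.85% of all genes passed. Whether these counts moved with those of all genes was not tested. The log2 fold change of Tfeb in KCs turned above 0 in the model of all 24 libraries (0.0020), lay between -0.11 and 0.19 with 1 library left out, at 0.05 without KC replicate 2 and 0.19 without KC-LC replicate 1, and was called in none of these. Under scaling to total counts, 27 rose and 12 fell in AMs (17.7% and 34.7% of all genes) and 29 rose and 5 fell in PMs (14.8% and 14.7%).

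Replicate numbers are shared across groups, but deviations of same-numbered libraries correlated between -0.114 and 0.0984, so the numbers were not taken to pair the libraries. With the replicate number as a block, 14 of the 51 were called higher in vitro in MG, 18 in KCs, 29 in AMs and 25 in PMs, 43 differed among sorted cells, 6 among cultures and 25 by the interaction. The shares of all genes called in the blocked fits were not counted.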
